A study of Mus musculus with 2 samples.

Results

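The 3 Slit ligands, *Slit1*, *Slit2* and *Slit3*, and the 3 Robo receptors *Robo1*, *Robo2* and *Robo3* were followed through the cell classes of the E16.5 mouse cortex. These 6 genes were taken by name from the 32285 genes listed in both count matrices, and all 6 were detected. Slits are large secreted proteins whose leucine-rich repeats bind the immunoglobulin domains of Robo, and the bound receptor steers growing axons and migrating neurons, mostly by repulsion, through GTPase-activating proteins and actin regulators. In the forebrain the pathway is known for keeping commissural and thalamocortical axons off the midline and ventral surface, for guiding interneurons around the striatum, and for acting in cortical progenitors. *Robo3* is the divergent member, known from commissural axons of the hindbrain and spinal cord.

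The libraries came from 2 embryos, numbered 4 and 5, both labelled EoMltt3 and WT at E16.5 and described as control animals of an Eomes-Cre line. No other genotype, treatment or age was analysed here, so all comparisons below are between cell classes of the same 2 animals. The labels name the tissue both as brain hemispheres and as cortex, and cells of ventral origin were among those recovered. The cortical gene *Neurod6* was present in both libraries, at 690 and 692 CPM in embryos 4 and 5.

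Counts are unique molecular identifiers (UMIs, each marking 1 captured transcript molecule), and a level is given as CPM, the UMIs of a gene divided by all UMIs of the class in that embryo and scaled to a common total. Embryo 4 had 124318613 UMIs in 12825 barcodes and embryo 5 had 117679925 UMIs in 12289 barcodes, of which 46 barcode sequences occurred in both libraries. After filtering, 9932 and 10416 cells remained with medians of 10009 and 8818 UMIs. Clustering without the members and their pathway genes gave 38 clusters, of which all but 14 were named after marker genes, as 15 classes. The 14 unnamed clusters held 5930 of the 20348 cells. The erythroid-like class went against its name in embryo 5, where 2 of its 8 markers were higher than in the other cells, and the 2 contrasts that average over it kept their counts of called members without it. Fibroblast-like cells numbered 1 in embryo 4 and 52 in embryo 5 and were left out of all tests. Levels are compared between classes and not between genes, since gene lengths differ widely and the counting of intron reads is not stated.

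The genes lie on 5 chromosomes of GRCm38.p6, the RefSeq assembly of the build that the submitters' notes name. *Slit1* occupies chromosome 19 from 41597824 to 41747275, *Slit2* chromosome 5 from 47981291 to 48307735, and *Slit3* chromosome 11 from 35121456 to 35708507. *Robo1* (chromosome 16, 72027518 to 73047491) and *Robo2* (chromosome 16, 73891976 to 75447443) are neighbours with 844484 bases between them, and they span 1019974 and 1555468 bases. *Robo3* (chromosome 9, 37416045 to 37433436) spans 17392 bases and lies 2021 bases from *Robo4*, the endothelial member of the family.

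*Slit2* and *Slit3* each carry within their borders a gene for the same microRNA, miR-218, which is known as a repressor of Robo receptors. The copy in *Slit2*, *Mir218-1*, gives its mature strand from chromosome 5, 48223966 to 48223986, and the copy in *Slit3*, *Mir218-2*, from chromosome 11, 35616840 to 35616860, both on the plus strand. The mature sequence, identical at both places and taken from RefSeq, is shown because it joins the 2 ligand genes to the receptors, and its seed, bases 2 to 8, is in capitals.
mmu-miR-218-5p: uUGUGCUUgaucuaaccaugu
A match to that seed, AAGCACA, was searched for on the sense strand in the 3′ UTR of the canonical transcript of the genes in GENCODE vM39, and 15.1% of the 20755 genes searched held at least 1. *Robo1*, *Robo2* and *Robo3* held 1, 2 and 1 matches, shown here with the match in capitals, *Slit2* held 2, and *Slit1* and *Slit3* held 0.
Robo1 site: ttttttggttttaaAAGCACAatcacta
Robo2 first site: ttttatttggtgatAAGCACAaatctct
Robo2 second site: gtcacggcagacccAAGCACAgcttctt
Robo3 site: cttgtgactcactgAAGCACActgtcta
The matches are a description of letters. Longer UTRs have more room for a match, and the 15.1% is over UTRs of all lengths. The UTRs of *Robo1*, *Robo2* and *Robo3* had 3128, 3987 and 406 bases. Those of *Slit1*, *Slit2* and *Slit3* had 214, 3492 and 3817 bases. The UTR of *Robo4*, which is not a member, had 1728 bases and held 0 matches. The libraries measured polyadenylated RNA and gave no level of miR-218 itself.

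The 3 ligands had different sources among the cells. *Slit1* was highest in interneurons of the caudal ganglionic eminence (CGE), layer 6 neurons and ventral progenitors, *Slit2* in progenitors, Cajal-Retzius cells and immature excitatory neurons, and *Slit3* mostly in clusters without a class name. Of the receptors, *Robo1* reached 100 CPM in both embryos in 10 of the 14 classes and *Robo2* in 11, while *Robo3* stayed under 10 CPM in 13. The *Robo2* classes include erythroid-like cells (127 and 149 CPM). Since gene lengths differ, these counts describe each gene and do not rank the genes.

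**Figure D1:**
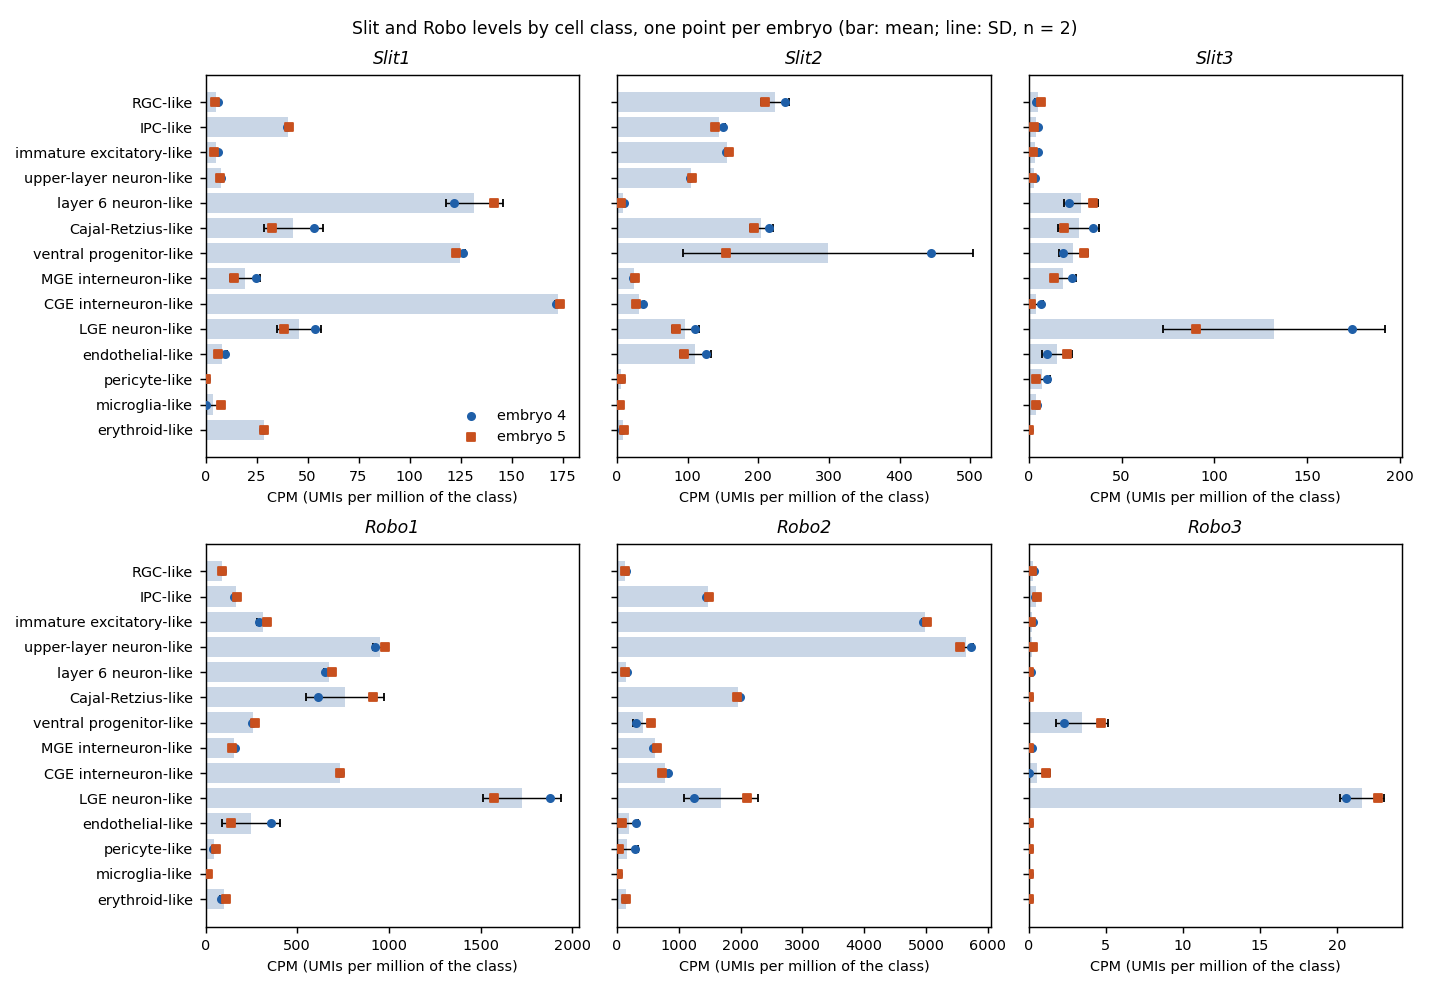
Level of each member in the 14 classes with at least 20 cells in each embryo, in CPM on linear axes that start at 0 and differ between panels; bars are means, lines SDs (n = 2), and points the 2 embryos. *Slit1* stands out in CGE interneuron-like, layer 6 and ventral progenitor-like cells, *Robo2* in upper-layer and immature excitatory neuron-like cells, and *Robo3* in LGE neuron-like cells, and the embryos lie apart for *Slit2* in ventral progenitor-like cells (444 and 154 CPM).

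*Slit1* stood at 172 and 174 CPM in CGE interneuron-like cells of embryos 4 and 5. Layer 6 neuron-like cells had 122 and 142 CPM, and ventral progenitor-like cells 126 and 123 CPM. These 3 named classes were at least 100 CPM in both embryos, and no other named class was. With cells of at least 500 genes ventral progenitor-like cells were the highest, at 179 CPM on average. Neighbours in the order of levels were compared in the same fit, edgeR's quasi-likelihood test on UMIs summed per embryo and class with Benjamini-Hochberg adjustment over 15883 genes and a call at an adjusted p under 0.05. CGE interneuron-like and layer 6 neuron-like cells did not differ by the test (log2 difference 0.17, standard error (SE) 0.17, adjusted p = 0.54 in edgeR). Layer 6 neuron-like cells were above ventral progenitor-like cells in the fit (log2 difference 0.40, edgeR adjusted p = 0.0287), but in CPM embryo 4 ran the other way (122 against 126) and embryo 5 did not (142 against 123). Next, ventral progenitor-like cells were above the next class, LGE neuron-like cells, by a log2 difference of 1.36 (SE 0.17, adjusted p = 2.84e-07 in edgeR). LGE neuron-like (45.9 ± 10.8 CPM, SD, n = 2), Cajal-Retzius neuron-like (42.9 ± 14.4 CPM) and IPC-like cells (40.4 ± 0.619 CPM) followed and were not separated from each other. Erythroid-like (28.0 and 28.9 CPM) and then MGE interneuron-like cells (24.7 and 14.1 CPM) came next. Neither step passed the test (adjusted p = 0.464 and 0.424 in edgeR). *Slit1* was near the bottom in RGC-like cells (5.26 ± 1.17 CPM) and immature excitatory neuron-like cells (5.15 CPM), and pericyte-like cells had 0 UMIs in both embryos.

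*Slit2* was at 238 and 210 CPM in RGC-like cells, the radial glia that line the ventricle, and at 216 and 193 CPM in Cajal-Retzius neuron-like cells. Immature excitatory neuron-like cells (154 and 158 CPM) and IPC-like cells (150 and 138 CPM) came next. Ventral progenitor-like cells had the highest mean, 299 ± 205 CPM (SD, n = 2), with embryo 4 at 444 and embryo 5 at 154 CPM. The first 8 classes in the order, down to LGE neuron-like cells at 96.6 ± 19.4 CPM, showed no difference between neighbours that passed the test, with edgeR adjusted p from 0.217 to 0.662. The step below LGE neuron-like cells, to CGE interneuron-like cells at 31.1 ± 7.04 CPM, passed it (log2 difference 1.60, SE 0.39, adjusted p = 0.00614 in edgeR). The highest class changed with the processing, to RGC-like cells with at least 500 genes (247 CPM) or at most 5% mitochondrial counts (216 CPM) and to Cajal-Retzius neuron-like cells at Leiden resolution 0.5 (312 CPM). MGE interneuron-like cells (23.6 ± 1.86 CPM) and layer 6 neuron-like cells (7.77 ± 2.79 CPM) held little *Slit2*.

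*Slit3* reached 174 and 89.9 CPM in LGE neuron-like cells, named after markers of neurons of the lateral ganglionic eminence (LGE). This name rested on the clustering, since at Leiden resolution 2 only 222 cells kept it, and the clusters led by *Pbx3* and by *Zic4* had no name. Layer 6 neuron-like cells, the next class, had 21.6 and 34.6 CPM and were lower by a log2 difference of 2.0 (SE 0.28, adjusted p = 1.73e-06 in edgeR). None of the neighbours below layer 6 differed by the test. The order of *Slit3* changed with the processing: the layer 6 neuron-like mean of 28.1 CPM was 258 CPM with cells of at least 500 genes and 308 CPM with more doublet neighbours, and the LGE neuron-like mean of 132 CPM was 549 CPM at Leiden resolution 2. With doublets kept the highest class was endothelial-like cells, at 135 CPM. The named classes held few of the gene's transcripts: 87.9% of *Slit3* UMIs in embryo 4 and 91.5% in embryo 5 came from the clusters without a class name, at 262 and 272 CPM over those clusters together. *Slit1* (44.6% and 48.4%) and *Robo1* (63.3% and 64.2%) also had a large part of their UMIs there, against 28.9% and 29.4% of all cells.

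Among the named classes *Robo1* was highest in LGE neuron-like cells, at 1878 and 1576 CPM. Some unnamed clusters, described below, were higher in both embryos. Upper-layer neuron-like cells followed at 924 and 976 CPM and were lower than LGE neuron-like cells by a log2 difference of 0.69 (SE 0.18, adjusted p = 0.00309 in edgeR). Cajal-Retzius neuron-like (611 and 911 CPM), CGE interneuron-like (735 and 735 CPM) and layer 6 neuron-like cells (653 and 690 CPM) formed a group whose neighbours did not differ by the test. RGC-like cells were at 89.3 CPM on average and microglia-like cells at 10.3 CPM. The 52 fibroblast-like cells of embryo 5 had 747 *Robo1* UMIs, or 1300 CPM, a single value with no second embryo beside it.

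*Robo2* stood at 5724 and 5555 CPM in upper-layer neuron-like cells and at 4945 and 5016 CPM in immature excitatory neuron-like cells. With more doublet neighbours the immature excitatory class was the highest, at 4807 CPM on average. These 2 classes did not differ by the test (log2 difference 0.19, SE 0.37, adjusted p = 0.795 in edgeR). The step down to Cajal-Retzius neuron-like cells (1986 and 1934 CPM) was a log2 difference of 1.58 (SE 0.38, adjusted p = 0.00149 in edgeR). LGE neuron-like cells had 1251 and 2098 CPM, a wide gap between the embryos, and IPC-like cells 1446 and 1496 CPM. Layer 6 neuron-like (147 ± 18.7 CPM) and RGC-like cells (132 ± 11.6 CPM) were in the lower part of the order. With each cell thinned to 2000 UMIs, at least 1 *Robo2* UMI was found in 99.3% and 99.6% of upper-layer neuron-like cells. The same share was 19.8% and 16.6% of RGC-like cells. In classes that could show free RNA it was 0% and 4% of 23 and 25 microglia-like cells. Their exact 95% intervals reached 14.8% and 20.4%. Pericyte-like cells had 9.80% and 2.27%, and 20 and 32 endothelial-like cells had 20% and 6.25%. Erythroid-like cells, whose name failed in embryo 5, had 13.1% and 22.9%. The RGC-like share lay within the range of these classes, above both pericyte-like shares. It is not read as expression above free RNA, which was not tested. The layer 6 neuron-like share, 19.4% and 18.0%, lay in the same range and is read no further.

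*Robo3* had 114 UMIs in all kept cells of embryo 4 and 104 in embryo 5. LGE neuron-like cells held 83 and 71 of them, 72.8% and 68.3%, at 20.6 and 22.6 CPM. Of these, 54 and 42 lay in a cluster, described below, whose LGE name is weak. Ventral progenitor-like cells came next at 2.26 and 4.66 CPM, and that difference passed the test (log2 difference 2.67, SE 0.47, adjusted p = 6.04e-05 in edgeR). A *Robo3* UMI was seen in 8.37% and 8.65% of LGE neuron-like cells before thinning. In 9 of the 14 classes there were at most 3 *Robo3* UMIs over both embryos, so no fold is given against them, apart from a ratio of counts for 1.

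The first comparison follows the excitatory lineage from radial glia (RGC) to the intermediate progenitors (IPC) they give rise to. *Robo2*, *Slit1* and *Robo1* were higher and *Slit2* lower in IPC-like cells, so that 3 members rose and 1 fell. Among all 15883 genes tested, 41.2% were called in this contrast, 18.1% higher and 23.1% lower. *Robo2* went from 140 and 124 CPM in RGC-like to 1446 and 1496 CPM in IPC-like cells (log2 fold change 3.49, SE 0.41, adjusted p = 6.19e-08 in edgeR). *Slit1* went from 6.08 and 4.43 CPM to 40.0 and 40.9 CPM (log2 fold change 2.95, SE 0.19, adjusted p = 1.23e-12 in edgeR). Both genes rose in each embryo. The share of all genes that do so was not counted, so this adds no support to the test. *Robo1* rose by a log2 fold change of 0.89 (edgeR adjusted p = 0.000202) and *Slit2* fell by 0.62 on the log2 scale (edgeR adjusted p = 0.027). With doublets kept neither of these passed (edgeR adjusted p = 0.117 and 0.151), and *Slit2* also missed the threshold with DESeq2 (adjusted p = 0.141) and at a coarser clustering (edgeR adjusted p = 0.061).

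From IPC-like to immature excitatory neuron-like cells 2 members rose and 1 fell, with 38.4% of all genes called, 19.2% in each direction. *Robo2* rose again, by a log2 fold change of 1.89 (SE 0.38, adjusted p = 0.000215 in edgeR). *Robo1* rose from 158 and 169 CPM to 290 and 334 CPM (log2 fold change 1.06, SE 0.18, adjusted p = 1.87e-05 in edgeR), a call that was lost with doublets kept (log2 fold change 0.30, edgeR adjusted p = 0.691). *Slit1* fell by 2.83 on the log2 scale (SE 0.20, adjusted p = 3.25e-12 in edgeR), back to 5.98 and 4.32 CPM. *Slit1* was thus higher in IPC-like cells than in the classes before and after. The IPC-like level was not separated from erythroid-like cells, at 28.0 and 28.9 CPM (log2 difference 0.44, SE 0.42, adjusted p = 0.464 in edgeR). After thinning, shares with a *Slit1* UMI were 7.61% and 7.15% of IPC-like and 5.05% and 7.14% of erythroid-like cells. Whether free RNA had a part in the IPC-like level was not tested.

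The layer neurons were taken as the mean of the upper-layer and layer 6 neuron-like classes on the log2 scale. They differed from immature excitatory neuron-like cells in 5 members, with 33.8% of all genes called, 16.4% higher and 17.3% lower. *Slit1* (log2 fold change 2.65), *Robo1* (1.41) and *Slit3* (1.28) were higher, with edgeR adjusted p of 2.09e-11, 4.51e-08 and 0.0135. *Slit2* fell by 2.38 and *Robo2* by 2.39 on the log2 scale (edgeR adjusted p = 5.47e-10 and 3.99e-07). The *Slit3* direction changed with the cell filter and the clustering: it was -0.99, -0.65 and -0.91 with cells of at least 500 genes and at Leiden resolutions of 0.5 and 2. Immature excitatory neuron-like cells then had 60.6, 14.6 and 13.2 CPM of *Slit3* in place of 3.62 CPM.

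That mean joins 2 classes that stood far apart. No cluster was named for layer 5, so layer 6 stands for the deep layers. Layer 6 neuron-like cells had 122 and 142 CPM of *Slit1* against 7.71 and 7.27 CPM in upper-layer neuron-like cells (log2 fold change 4.22, SE 0.20, adjusted p = 1.08e-15 in edgeR). The reverse held for the receptor *Robo2*, at 160 and 134 CPM in layer 6 against 5724 and 5555 CPM in upper-layer neuron-like cells (log2 fold change -5.18, SE 0.45, adjusted p = 2.01e-10 in edgeR). *Slit2* was at 9.74 and 5.79 CPM in layer 6 and 103 and 106 CPM in upper-layer neuron-like cells. It was lower in layer 6 by 3.65 on the log2 scale (edgeR adjusted p = 2.07e-10), and *Slit3* was higher by 3.47 (edgeR adjusted p = 1.7e-07). In all 2 members were higher and 2 lower in layer 6, and 32.9% of all genes were called, 17.5% higher and 15.5% lower. *Robo1* was present in both classes, with a log2 fold change of -0.42 (SE 0.18, adjusted p = 0.0706 in edgeR). With the embryo as a block it passed the threshold (edgeR adjusted p = 0.0152), and with at most 5% mitochondrial counts its sign turned (0.07, edgeR adjusted p = 0.781).

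**Figure D2:**
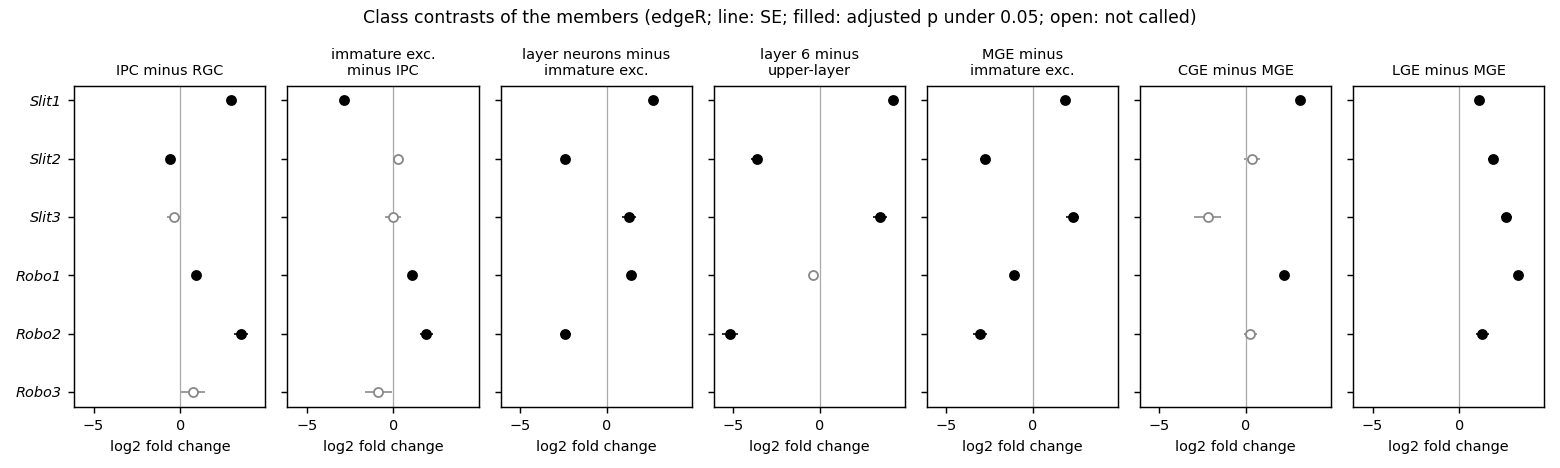
Log2 fold changes of the members in 7 contrasts between classes, with standard errors as lines; filled points have an edgeR adjusted p under 0.05, open points do not, and folds against classes with at most 3 UMIs are left out. *Slit1* rises by 2.95 from RGC-like to IPC-like cells and falls by 2.83 in the next step, and *Robo2* rises by 3.49 and 1.89 in the same steps. In a separate contrast *Robo2* is lower by 5.18 in layer 6 than in upper-layer neurons.

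The clusters inside these classes resolve the members further. They are described without a test, and their order within a class is not a measured one. Among the 3 IPC-like clusters, the one led by *Gadd45g*, *Neurog2* and *Smoc1* had the highest *Slit1*, at 96.2 and 92.7 CPM, and the lowest *Robo2*, at 287 and 178 CPM. In the one led by *Kif26b* and *Eomes* there were 16.9 and 21.3 CPM of *Slit1* and 2155 and 2413 CPM of *Robo2*. The cycling IPC-like cluster, led by *Pclaf* and *Rrm2*, lay between them for *Robo2* (1294 and 1162 CPM) and near the second for *Slit1* (22.8 and 24.3 CPM). The ligand and the receptor were thus high in different IPC-like clusters of both embryos.

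Among RGC-like clusters, *Slit2* was at 359 and 271 CPM in the one led by *Fabp7* and *Mt1*. It was at 168 and 173 CPM in the cluster led by *Tnc* with the replication genes *Pclaf* and *Mcm3*, and at 175 and 204 CPM in the mitotic cluster led by *Cenpf*. Of the 3 immature excitatory clusters, the one led by the transcription factor gene *Tfap2d* had 383 and 343 CPM of *Slit2*, against 101 to 121 CPM in the other 2. That cluster had less *Robo2*, 3501 and 3551 CPM, than the clusters led by *Cdh8* (4916 and 5098 CPM) and *Nrp1* (5619 and 5608 CPM). *Robo1* differed between the latter 2 as well, with 156 and 179 CPM in the *Cdh8* cluster and 426 and 486 CPM in the *Nrp1* cluster.

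**Figure D3:**
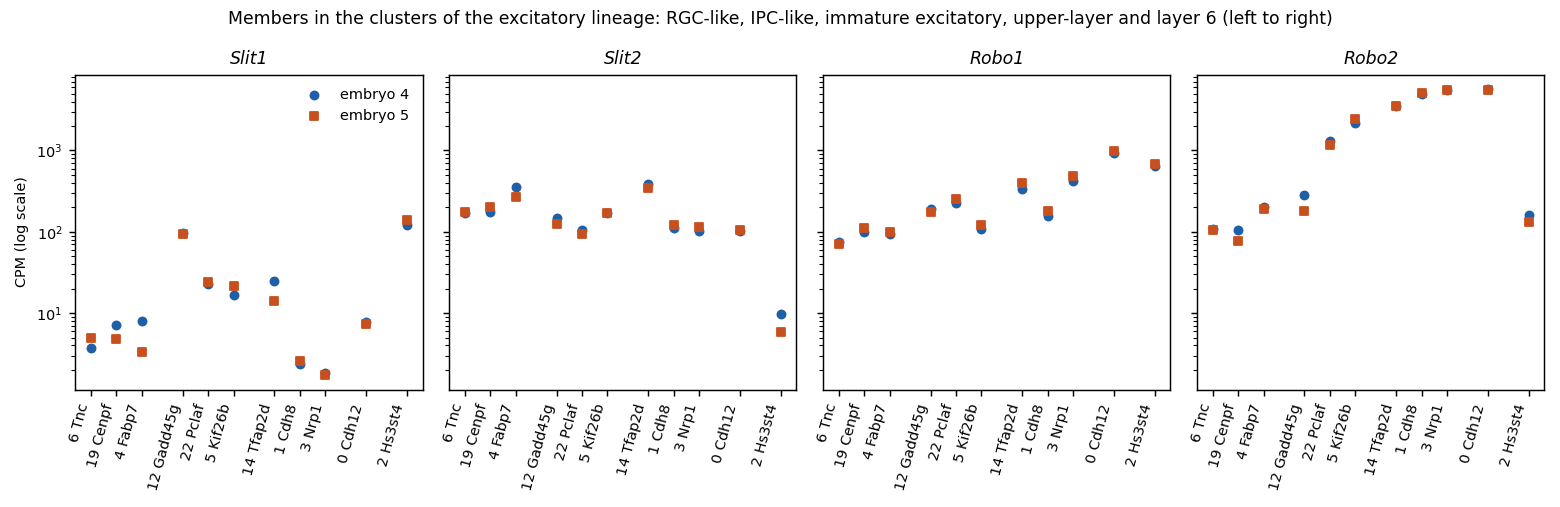
*Slit1*, *Slit2*, *Robo1* and *Robo2* in 11 clusters of the excitatory classes, in CPM on a log axis, with the 2 embryos as points; each cluster is given by its number and leading gene, and the order within a class is arbitrary. *Slit1* peaks in the IPC-like cluster led by *Gadd45g* (96.2 and 92.7 CPM) and again in layer 6 (122 and 142 CPM), where *Robo2* is at 160 and 134 CPM.

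Interneurons of the medial ganglionic eminence (MGE), the class that holds the somatostatin cells, reach the cortex by tangential migration. Set against immature excitatory neuron-like cells, MGE interneuron-like cells were higher in 2 members and lower in 3, with 37.6% of all genes called, 18.5% higher and 19.1% lower. *Robo2* was at 589 and 648 CPM, lower by 3.06 on the log2 scale (log2 fold change -3.06, SE 0.40, adjusted p = 3.93e-07 in edgeR), and *Slit2* at 22.3 and 24.9 CPM had a log2 fold change of -2.78 (edgeR adjusted p = 2.53e-09). *Slit1*, at 24.7 and 14.1 CPM, was higher (log2 fold change 1.85, edgeR adjusted p = 3.09e-07). Erythroid-like cells had 28.0 and 28.9 CPM of *Slit1*, above the MGE interneuron-like level in both embryos. That level is not read as expression above free RNA, which was not tested. *Robo1* had a log2 fold change of -1.09 (edgeR adjusted p = 1.83e-05), which turned to 0.39 with doublets kept and to 0.04 at the finer clustering. *Slit3* had a log2 fold change of 2.28 (edgeR adjusted p = 3.25e-05), which turned to -1.90 with cells of at least 500 genes, where immature excitatory neuron-like cells had 60.6 CPM. The class levels moved as well, since *Robo1* in MGE interneuron-like cells was at 153 CPM in the reported clustering, 310 CPM with doublets kept and 384 CPM at the finer clustering.

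The 2 MGE interneuron-like clusters had unlike levels of *Slit3* and *Robo2* in both embryos. The cluster led by *Erbb4* and *Nxph1* had 30.4 and 22.3 CPM of *Slit1* and 4.23 and 0.95 CPM of *Slit3*. Cells of the other cluster, led by *Neto1* and *Sst*, had 18.6 and 6.27 CPM of *Slit1* and 43.8 and 26 CPM of *Slit3*. *Robo2* was at 719 and 750 CPM in the first and 454 and 552 CPM in the second. *Robo1* (174 and 114 CPM against 150 and 171 CPM) and *Slit2* (18.2 and 27.1 CPM against 26.6 and 22.9 CPM) overlapped between them.

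CGE interneuron-like cells, the other cortical interneurons, were higher than MGE interneuron-like cells in *Slit1* and *Robo1* and in no member lower, with 6.14% of all genes called, 2.95% higher and 3.2% lower. *Slit1* was at 172 and 174 CPM against 24.7 and 14.1 CPM (log2 fold change 3.08, SE 0.21, adjusted p = 1.48e-11 in edgeR). *Robo1* was at 735 and 735 CPM against 162 and 144 CPM (log2 fold change 2.20, SE 0.19, adjusted p = 1.58e-09 in edgeR), and this call was lost with doublets kept (log2 fold change 1.31, edgeR adjusted p = 0.168). *Robo2* had a log2 fold change of 0.25 (SE 0.38, adjusted p = 0.851 in edgeR) and *Slit3* of -2.23 (SE 0.79, adjusted p = 0.108 in edgeR). *Vip*, a marker of some CGE interneurons, was at 0 in this class in both embryos, and its other 6 markers were higher than in the remaining cells.

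LGE neuron-like cells were higher than MGE interneuron-like cells in all 6 members, where 15.9% of all genes were called, 9.61% higher and 6.34% lower. *Robo1*, at 1878 and 1576 CPM, had a log2 fold change of 3.40 (SE 0.19, adjusted p = 1.3e-13 in edgeR). *Slit3* had a log2 fold change of 2.72 (edgeR adjusted p = 9.9e-08) and *Slit2* of 1.94 (edgeR adjusted p = 1.12e-05), and *Robo2* and *Slit1* of 1.34 and 1.15 (edgeR adjusted p = 0.0132 and 0.00013). *Robo3* was called as well (edgeR adjusted p = 9.17e-08), on 154 UMIs against 1, a ratio of CPM of 193 with an exact 95% interval of 34.0 to 7653 that covers counting error only. At the finer clustering the count was 3 of 6, where 1370 of 13690 genes were called. *Slit1* (log2 fold change -0.42), *Slit2* (-0.19) and *Robo2* (1.02) were not called there. *Robo2* also missed the threshold with DESeq2, with cells of at least 500 genes and with doublets kept (adjusted p = 0.0859, 0.619 and 0.16), and *Slit2* with doublets kept (edgeR adjusted p = 0.0661).

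The LGE neuron-like class is made of 2 clusters that carried the receptors in unlike amounts. The cluster led by *Pbx3*, *Grm8* and *Adarb2* had 2710 and 3319 CPM of *Robo2* and 1780 and 1240 CPM of *Robo1*. The cluster whose leading genes include *Zic4*, *Zic1*, *Isl1*, *Lhx8* and *Gnrh1* had 643 and 619 CPM of *Robo2* and 1919 and 1983 CPM of *Robo1*. On the marker lists it scored 1.39 for the LGE class and 1.17 for ventral progenitors, so its name is weak. *Slit3* was at 458 and 121 CPM in the first and 55.9 and 52.2 CPM in the second. *Robo3* was found in both, at 24.5 and 16.9 CPM and at 19 and 29.6 CPM. The second, weakly named cluster held 54 and 42 of the *Robo3* UMIs of the class in embryos 4 and 5. The first cluster made up 206 of 514 class cells in embryo 4 and 313 of 474 in embryo 5, and the gap between the embryos in the *Robo2* level of the class moved with these numbers, whose part in it was not tested.

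Ventral progenitor-like cells also held 2 clusters. The one led by *Ano1* and including *Ntn1* had 869 and 338 CPM of *Slit2*, so that embryo 4 was higher, while *Slit1* was at 128 and 136 CPM in it.

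Cajal-Retzius neurons, the early-born *Reln* cells of the cortical surface, were compared with the mean of the other 13 classes on the log2 scale. Classes with hardly any UMIs of a gene pull that mean down. Cajal-Retzius neuron-like cells were above it in 5 of 6 members, where 31% of all genes were called, 22.4% higher and 8.59% lower. *Robo2* (1986 and 1934 CPM) had a log2 fold change of 2.12 (SE 0.24, adjusted p = 5.9e-08 in edgeR) and *Robo1* (611 and 911 CPM) of 1.77 (SE 0.13, adjusted p = 5.71e-12 in edgeR). The median of all genes in this contrast was 0.15. *Slit2*, *Slit1* and *Slit3* were called higher too (edgeR adjusted p = 3.06e-08, 0.000246 and 0.00701), but some of the other classes had at most 3 UMIs of these genes and no fold is given. The *Slit3* call rested on 43 and 20 UMIs. For *Slit1*, CGE interneuron-like, layer 6, ventral progenitor-like and LGE neuron-like means (173, 132, 124 and 45.9 CPM) stood above the Cajal-Retzius mean of 42.9 CPM. *Robo3* had 0 UMIs in this class in both embryos, with exact 95% intervals for counting error that reach 2.97 and 3.55 CPM.

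The vascular classes, endothelial-like and pericyte-like cells, were compared with the mean of the other classes on the log2 scale. They were lower in 3 members and higher in 0, with 35.8% of all genes called, 17.3% higher and 18.5% lower. *Robo1* had a log2 fold change of -1.65 (edgeR adjusted p = 9.35e-08) and *Robo2* of -2.08 (edgeR adjusted p = 1.56e-05), against a median of all genes of -0.25. *Robo1* was at 359 and 137 CPM in endothelial-like and 38.7 and 56.2 CPM in pericyte-like cells. *Robo2* was at 301 and 86.4 CPM in endothelial-like and 285 and 28.1 CPM in pericyte-like cells, a wide gap between the embryos. The 285 CPM rested on 169 UMIs from 11 cells. *Slit1* was called lower (edgeR adjusted p = 1.21e-05) on 3 UMIs in endothelial-like cells and 0 in pericyte-like cells. With doublets kept *Robo1* and *Robo2* were not called (edgeR adjusted p = 0.746 and 0.218). With cells thinned to 2000 UMIs the count of called members was 1, where 2557 of 12762 genes were called. *Slit2* in endothelial-like cells, at 126 and 95.4 CPM, rested on 13 and 32 UMIs from 22 and 32 cells. *Robo4*, a receptor of blood vessels, was at 69.0 ± 26 CPM (SD, n = 2) in endothelial-like cells and at 2.53 CPM or less in the other classes.

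Several unnamed clusters were the richest in *Slit3* and *Robo1*. The cluster led by *Crym* and *Zfp385b* had 941 and 1053 CPM of *Slit3* with 2044 and 2518 CPM of *Robo1*, while *Robo2* was at 66.8 and 18.8 CPM. Clusters led by *Gabra2* and *Chrna7* (583 and 546 CPM), by *Tafa1* and *Thsd7a* (526 and 540 CPM), by *Tafa1* with *Nefm* (415 and 482 CPM) and by *Grin2a*, whose leading genes include *Nr4a2* (293 and 350 CPM), carried *Slit3* as well. *Slit2* was high in the second of these, at 409 and 466 CPM, and in the third, at 306 and 288 CPM. A set of other unnamed clusters had high *Robo1* with less *Slit3*: the cluster led by *Nts* had 2456 and 2769 CPM of *Robo1* with 51.4 and 30.9 CPM of *Slit3*, and the cluster led by *Gm49678* and *Kcnq5* had 1695 and 1592 CPM with 4.19 and 3.1 CPM. A cluster led by *Kctd8* and *Kirrel3*, whose best marker match was layer 6 but below the limit for a name, had 1887 and 1745 CPM of *Robo1* and 135 and 146 CPM of *Slit1*. *Slit1* in it was thus close to the layer 6 neuron-like class, and *Robo1* was above it in both embryos.

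A small cluster led by *Ttr* and *Rspo2*, of which *Ttr* is a gene of the choroid plexus, had 543 and 1053 CPM of *Slit2* and 712 and 142 CPM of *Slit3* in 29 and 21 cells. The embryos were far apart in both ligands there and in opposite directions.

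**Figure D4:**
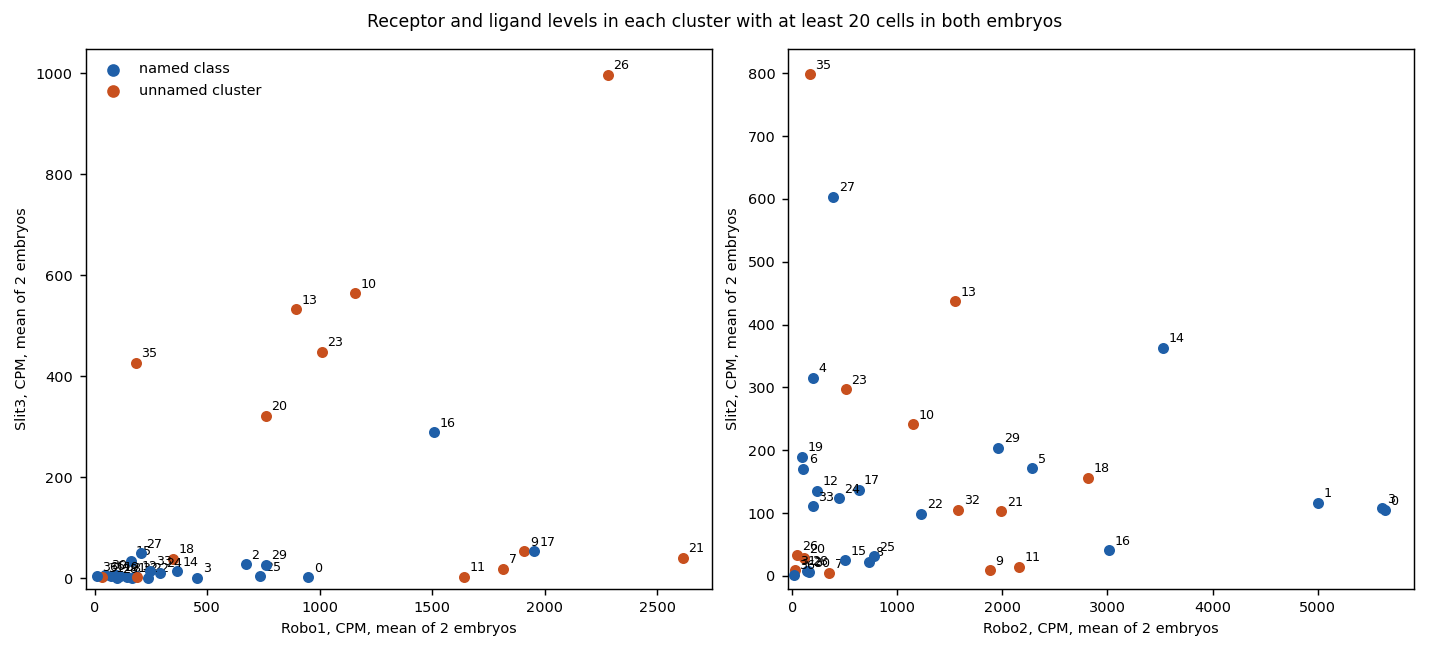
*Robo1* against *Slit3* (left) and *Robo2* against *Slit2* (right) in the 36 clusters with at least 20 cells in each embryo, in CPM as means of the 2 embryos, with cluster numbers; 13 of the clusters have no class name. The cluster led by *Crym* (26) lies highest for *Slit3*, above 900 CPM in both embryos, and upper-layer and immature excitatory clusters (0, 1, 3) lie farthest right for *Robo2* with *Slit2* between 101 and 121 CPM.

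The members' patterns across the 14 classes were compared as a description, on log2(CPM + 10) averaged over the embryos. *Robo1* and *Robo2* had a Pearson correlation of 0.73, *Slit2* and *Robo2* of 0.61, and *Slit1* and *Slit2* of 0.08. *Slit3* and *Robo3* had 0.79, but *Robo3* did not reach the 50 CPM set as the minimum for this measure and was above 10 CPM in LGE neuron-like cells alone, so its values rest on that class. All points share 2 animals, and depth and free RNA differ between the classes. By the same measure the genes most like *Slit1* were *St18* (0.85), *Rgs16* (0.84) and *Dlgap3* (0.82), and those most like *Slit2* were *Wbp4* (0.89), *Nrg1* (0.88) and *Ctbp2* (0.88). For *Slit3* they were *Il1rapl2* (0.83), *Spon1* (0.80) and *Rgs7* (0.79), and for *Robo1* *Macrod2* (0.89), *Rab30* (0.88) and *Unc13b* (0.88). *Robo2* was most like *Nkain3* (0.93), *Unc5d* (0.91) and *Aff2* (0.90), of which *Unc5d*, a netrin receptor gene, is a marker of the immature excitatory neuron-like class. Below that minimum, *Robo3* was most like *Six3* (0.87), *Isl1* (0.86) and *C79798* (0.80), and *Six3* and *Isl1* are markers of the LGE neuron-like class.

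Of 8 other ligands and receptors tied to the pathway, 4 were higher and 1 lower in IPC-like than in RGC-like cells, where 41.2% of all genes were called. In LGE neuron-like against MGE interneuron-like cells 5 were higher and 1 lower, where 15.9% of all genes were called. *Nell1* and *Nell2* encode secreted proteins of which NELL2 is a ligand of ROBO3. *Nell1* was at 164 ± 8.03 CPM (SD, n = 2) in MGE interneuron-like cells and 91.2 ± 25.7 CPM in LGE neuron-like cells, and its log2 fold change over immature excitatory neuron-like cells was 6.42 in MGE interneuron-like cells. *Nell2* was at 420 ± 13.3 CPM in upper-layer and 13.6 ± 1.10 CPM in Cajal-Retzius neuron-like cells. *Ndnf*, which encodes a secreted protein, was at 374 ± 21.1 CPM in Cajal-Retzius neuron-like cells and at most 19.5 CPM on average in the other 13 classes. *Dcc*, the netrin receptor that Robo can bind, rose from 322 ± 6.68 CPM in RGC-like to 2481 ± 30.7 CPM in IPC-like cells (log2 fold change 2.96), as *Robo2* did. *Flrt3*, a membrane protein that binds *Robo1*, was lower in layer 6 (12.4 ± 2.58 CPM) than in upper-layer neuron-like cells (158 ± 16 CPM) by 3.57 on the log2 scale (log2 fold change -3.57).

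Surface proteoglycans hold Slit at the membrane through heparan sulfate. Of the 6 listed, 5 were lower and 1 higher in IPC-like than in RGC-like cells, where 23.1% of all genes were lower and 18.1% higher, with a median log2 fold change of -0.74 beside -0.06 over all genes. The 1 that rose was *Sdc3*, from 5.01 ± 0.72 to 60.2 ± 1.41 CPM (log2 fold change 3.59). *Sdc2*, *Gpc1*, *Sdc1*, *Dag1* and *Sdc4* fell. *Sdc2* was highest in pericyte-like cells, at 251 ± 62.1 CPM.

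Of the 21 intracellular Robo effectors, 5 were higher and 5 lower in IPC-like than in RGC-like cells, where 41.2% of all genes were called, with a median log2 fold change of -0.02. From IPC-like to immature excitatory neuron-like cells 8 rose and 6 fell, beside 19.2% of all genes in each direction. Between CGE and MGE interneuron-like cells 1 was higher and 1 lower, beside 6.14% of all genes called. *Srgap1*, which encodes a Slit-Robo GTPase-activating protein, rose from 34.9 ± 2.11 CPM in IPC-like to 173 ± 15.1 CPM in immature excitatory neuron-like cells (log2 fold change 2.44) and again in layer neurons (log2 fold change 1.32). *Srgap2* was at 424 ± 2.80 CPM in MGE interneuron-like cells, with a log2 fold change of 1.49 against immature excitatory neuron-like cells, and at 131 ± 11.9 CPM in LGE neuron-like cells. *Nck1*, an adaptor that couples Robo to Pak kinases, was at 23.1 ± 0.21 CPM in layer 6 against 4.12 ± 0.68 CPM in upper-layer neuron-like cells (log2 fold change 2.57). Among the 4 genes of Robo trafficking and cleavage, *Usp33*, the deubiquitinase that acts on *Robo1*, was within 51.8 to 88.6 CPM in 13 of the 14 classes. *Cables1* rose (log2 fold change 2.01) from IPC-like to immature excitatory neuron-like cells.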

How the data were processed

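The authors dissociated E16.5 cortex of 2 embryos, prepared 10x Genomics 3′ libraries and deposited raw UMI counts per gene and barcode made with Cell Ranger 7.0.0 on mm10. Whether intron reads were counted is not given in the sources used here. Barcodes passed with 1000 or more genes and no more than 10% of counts from mitochondria, and 947 and 1052 simulated-neighbour doublets were removed. Cells were clustered (scanpy 1.11.5, 30 principal components, 10 neighbours, Leiden resolution 1) without the members and 39 pathway genes, and clusters were named from marker lists by limits set after the clusters were seen. The members, lists and contrasts were chosen with earlier results of these data known. Genes likest to each member by correlation over classes, and pathway genes that were called, were named.

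UMIs were summed per embryo and class. edgeR 4.0.16 fitted 14 classes with at least 20 cells in each embryo by quasi-likelihood (TMM, 14 residual degrees of freedom, 15883 genes, Benjamini-Hochberg adjustment). Standard errors are the fold change over the root of F. Classes of 1 embryo share that animal. The deviations of same-embryo sums from class means correlated between -0.012 and 0.20 over 91 class pairs, with a median of 0.038. With 2 embryos, p-values rest on the spread between these 2 animals within classes, pooled over the 14 classes. Without the embryo block they treat the class sums of 1 animal as independent. No fold is given where a class of the contrast had at most 3 UMIs over both embryos. On simulated data for IPC-like against RGC-like cells (15501 genes), 79% of genes changed by 1.5 on the log2 scale and 23% of those changed by 0.75 were recovered, with 1.92% false calls. The alternatives were other cell filters, doublets kept, other doublet neighbours, Leiden resolutions of 0.5 and 2, thinning to 2000 UMIs, no filter on low counts, DESeq2 1.42.0, an embryo block and smaller fits. Gene positions and miR-218 came from RefSeq (GRCm38.p6) and 3′ UTRs from GENCODE vM39.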

Additional observations from a re-analysis of the deposited data

How the results depend on the processing

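Of 41 member results with a fold, 32 were called, and 20 of these kept their direction and call under each alternative run for them. There were 13 alternatives, but not all applied to each result: the one without the erythroid-like class covered 4 results, the fit with the classes of the contrast alone 35, and thinning 40. The number of members called moved by over 1.5 times in 4 contrasts, and calls over all genes moved as well. IPC-like against RGC-like cells went from 4 to 2 with doublets kept, beside 6536 of 15883 and 5380 of 16313 genes called. CGE against MGE interneuron-like cells went from 2 to 4 with at least 500 genes, beside 976 of 15883 and 1183 of 14781 genes. With doublets kept the count there was 1, beside 615 of 16313 genes. LGE neuron-like against MGE interneuron-like cells went from 6 to 3 at Leiden resolution 2, beside 2533 of 15883 and 1370 of 13690 genes. The vascular classes went from 3 to 1 after thinning, beside 5683 of 15883 and 2557 of 12762 genes.

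Signs turned as follows, and the cause was not tested. From IPC-like to immature excitatory neuron-like cells, *Slit3* (-0.01) became 0.10 without the filter on low counts, 3.98 with at least 500 genes, 1.87 and 1.80 at Leiden resolutions of 0.5 and 2, and 0.81 with more doublet neighbours, and *Slit2* (0.24) became -0.18 at resolution 0.5. In layer neurons against immature excitatory neuron-like cells, *Slit3* became -0.99 with at least 500 genes and -0.65 and -0.91 at the 2 resolutions. In layer 6 against upper-layer neurons, *Robo1* became 0.072 with at most 5% mitochondrial counts and 0.0094 with more doublet neighbours. In MGE interneuron-like against immature excitatory neuron-like cells, *Slit3* became -1.90 with at least 500 genes, and *Robo1* became 0.39 with doublets kept and 0.041 at resolution 2. In CGE against MGE interneuron-like cells, *Slit2* became -0.68 with doublets kept and -0.48 at resolution 2, and *Robo2* became -0.26 with doublets kept. In LGE neuron-like against MGE interneuron-like cells, *Slit1* became -0.42 and *Slit2* -0.19 at resolution 2.

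The embryo number as a replicate block, which pairs class sums of the same animal, changed 1 call, *Robo1* in layer 6 against upper-layer neurons. Its log2 fold change was -0.41 or -0.42 with and without the block (edgeR adjusted p = 0.0152 and 0.0706). The count of members called there went from 4 to 5, where all genes called went from 5233 to 5803 of 15883. With 1 embryo left out, the other gives a value with no test. Without embryo 5 the sign of *Slit3*, which was not called, turned from IPC-like to immature excitatory neuron-like cells (0.029) and in IPC-like against RGC-like cells (0.25). The fit with the classes of the contrast alone was not run for the 2 contrasts against the other classes. Counts were few for *Robo3* (114 and 104 UMIs in all) and in the vascular, microglia-like and erythroid-like classes. Whether depth, cell number or level set this was not tested.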
